A study of Mus musculus with 44 samples.

Results

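Among the fibroblasts sorted as CD26+ from mammary tumors, those that carry a mark of past En1-Cre activity were compared with those that do not, within the same mouse. The comparison rests on 12 of the 44 libraries, a double+ library (GFP+ and CD26+, of the En1 lineage) and a CD26+ library (GFP− and CD26+) from each of the 6 tumor mice, of 10, that have both sorts. WB1P mice 93, 14 and 35 and WB1P-Myc mice 21, 23 and 69 met this rule, which uses labels and no measured value. All recipients were En1-Cre;mTmG mice, about 3 weeks old when transplanted, in which Cre from the En1 gene switches a membrane tdTomato reporter to membrane GFP, and all received pieces of donor mammary tissue in a gland whose own fat pad and fibroblasts were left in place. WB1P tissue came from WapCre;Brca1 F/F;Trp53 F/F donors, which lose both tumor suppressors in mammary epithelium, and WB1P-Myc tissue carried in addition Col1a1 invCAG-Myc-IRES-Luc, a Cre-activated Myc gene. The tumor cells thus differ between the models, while the lineage reporter of the cancer-associated fibroblasts (CAFs) is carried by the host. The series describes the tumors as end-stage, and the labels mark WB1P-Myc mice 23 and 69 as 8x8. Fibroblasts were gated as EpCAM−/CD49f−/CD31−/CD45− cells, and GFP records that En1-Cre was active at some time in the past of a cell or its ancestors, not that En1 is on at the time of the sort. Below, En1 lineage means GFP+ and non-lineage means GFP−. Whether GFP− cells also had ancestors that expressed En1 was not tested. The normal fibroblasts (NFs) used for comparison came from age-matched recipients of control tissue, and their labels read wildtype.

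En1 encodes a homeodomain transcription factor that is active in part of the embryonic somite and body wall, and fibroblasts that descend from En1-expressing cells populate the dermis of the back, where they are known for scar formation. Zic1 encodes a zinc finger transcription factor of the dorsal somite and neural tube. CD26, encoded by Dpp4, is a surface peptidase found on fibroblasts of the adventitia and fascia that share a progenitor-like program. Reporter and surface marker are separate labels, so that CD26+ cells with and without the GFP record of En1-Cre can be told apart in the same tumor.

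Between 9697668 and 15155454 reads were counted on genes in the 12 libraries, and double+ libraries were deeper than the CD26+ library of the same mouse in 4 of 6 mice. Levels are given as CPM, counts relative to a library size scaled by TMM (edgeR's trimmed-mean normalization), and are not divided by gene length. The fibroblast identity of both sorts was plain in their markers. Col3a1 had a mean of 27070 CPM in CD26+ and 27320 CPM in double+ libraries, Pdgfra 884 and 861 CPM, and none of the 10 fibroblast markers tested was called. Summed levels of the 13 epithelial and tumor cell markers ran from 5.7 to 202 CPM in CD26+ and from 6.19 to 244 CPM in double+ libraries, and were higher in the double+ library of 5 of 6 mice. The 13 immune markers summed to 31.4 to 149 CPM and 28.3 to 317 CPM, of which Cd3e made up most, while Cd3g had at most 3 counts in any library and Ms4a1 had 0. Sums ran from 21.1 to 40.2 and 21.3 to 48.8 CPM for 9 endothelial markers, from 199 to 414 and 238 to 420 CPM for 9 pericyte markers, from 9.77 to 23.8 and 9.94 to 29.7 CPM for 8 Schwann cell markers, from 3.61 to 7.69 and 4.1 to 8.85 CPM for 13 skeletal muscle markers, and from 5.75 to 27.9 and 6.62 to 39.1 CPM for 9 adipocyte markers. Of these markers, 10 epithelial and tumor cell, 6 immune, 4 endothelial and 7 pericyte markers passed a low-count filter and were tested. So were 3 Schwann cell markers, 1 skeletal muscle marker and 1 adipocyte marker. None of those tested was called, against 0.0625% of all genes tested, and the others were too low to test. Myod1, Myf5, Myog, Lep, Foxd3 and Gfra3 were at 0 in all 12 libraries. The part of other cells in the results below was not tested beyond these values. In bulk libraries, fewer cells of a kind and less RNA per cell cannot be told apart.

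The En1-lineage and non-lineage CD26+ CAFs of a mouse were closer to each other than to the same population of any other mouse. The spread of log2 level differences over the 12798 genes tested was 0.243 to 0.327 (SD, median 0.261) between the 2 libraries of a mouse. It was 0.394 to 0.761 between CD26+ libraries of different mice and 0.457 to 0.766 between double+ libraries of different mice. For 12 of 12 libraries, the nearest library was the other sort of the same mouse. The spread between mice was thus larger than the spread between lineages in every such comparison.

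Transcripts of En1 and Zic1 differed between the GFP+ and GFP− sorts. The 300 bases around their start sites are shown because these genes separate the populations and because CCAAT, the letters that the factor NF-Y binds, stands in both, in capitals on either strand (ATTGG on the other). They are from RefSeq (GRCm38.p6), at chr1:120602237-120602536 on the plus strand for En1 and chr9:91365719-91366018 on the minus strand for Zic1, and run from 250 bases before to 50 after the start.
En1: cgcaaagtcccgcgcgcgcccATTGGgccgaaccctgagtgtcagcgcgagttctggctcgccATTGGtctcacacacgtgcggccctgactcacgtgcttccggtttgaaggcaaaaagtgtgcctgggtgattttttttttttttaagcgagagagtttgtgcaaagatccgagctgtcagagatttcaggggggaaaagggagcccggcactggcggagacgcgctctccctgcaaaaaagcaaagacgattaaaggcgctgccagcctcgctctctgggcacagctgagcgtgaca
Zic1: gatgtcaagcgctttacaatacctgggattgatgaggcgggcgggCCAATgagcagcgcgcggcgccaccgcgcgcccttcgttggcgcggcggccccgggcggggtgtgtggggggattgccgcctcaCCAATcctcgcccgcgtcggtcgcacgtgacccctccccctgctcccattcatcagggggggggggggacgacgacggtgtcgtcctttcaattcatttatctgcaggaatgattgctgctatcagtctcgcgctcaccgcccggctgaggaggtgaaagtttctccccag
Each window holds 2 such matches. Of the 32851 windows of this length in the table, 37.4% hold at least 1, and the share that holds 2 was not counted. Both hold the palindrome CACGTG, which 7.15% of windows do, and neither holds TATAAA (13.6%) or the homeodomain core TAATTA (5.29%) on either strand. GC content is 57% for En1 and 65.3% for Zic1, against a median of 52.7%. Zic4, whose start lies 3204 bases from that of Zic1 on the opposite strand, has no CCAAT in its window.

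En1 (chromosome 1, 120602418 to 120607992, plus strand, protein coding) was higher in the double+ library of every mouse. In WB1P mice 93, 14 and 35, CD26+ libraries held 44.1, 14.9 and 14.1 CPM and double+ libraries 81.4, 31.9 and 24.1 CPM. In WB1P-Myc mice 21, 23 and 69, the levels were 13.5, 13 and 12 CPM in CD26+ and 26.6, 19.1 and 17.1 CPM in double+ libraries. En1 mRNA was therefore present in GFP− cells as well, and mouse 93 had the highest level in both sorts, so that the ranges of the groups overlapped although the order within each mouse did not vary. The log2 fold change was 0.82 ± 0.08 (SE, n = 6 mice, adjusted p = 0.0015 in edgeR's quasi-likelihood test with the mouse as a block and Benjamini-Hochberg adjustment), or 1.77-fold.

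Zic1 (chromosome 9, 91358058 to 91365810, minus strand) was nearly confined to the En1 lineage in these 12 libraries. Of the CD26+ libraries, that of WB1P mouse 14 held 1 count and the other 5 held 0. The double+ libraries held 21, 43 and 25 counts in WB1P mice 93, 14 and 35 and 25, 9 and 7 counts in WB1P-Myc mice 21, 23 and 69, or 0.504 to 2.76 CPM, so that the groups did not overlap. The ratio of the depth-scaled totals, 130 counts against 1, was 119 (95% exact interval 21 to 4751, for counting error only). The exact sign-flip permutation test over the 6 mice gave p = 0.0312 (two-sided, unadjusted), the smallest that 6 pairs allow. Any gene with 1 direction in all 6 mice reaches this value, and the tests were chosen with earlier results of these data known. Zic1 was below the low-count filter of the 12-library fit. It passed the filter of the 44-library fit through the GFP+ libraries alone, so that its calls there carry no further weight. Its neighbour Zic4 held 17 counts in double+ and 1 in CD26+ libraries, a ratio of 15.6 (2.45 to 652), with at least 1 count in 6 of 6 double+ libraries. The Zic1 and Zic4 genes overlap on opposite strands in GENCODE M21, and whether the counting used strand is not given in the sources used here. No other Zic gene had more than 4 counts in either total, En2 had 10 and 10, and Pax3 and Pax7 had 0 in all 12 libraries.

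The reporter locus differed in the same direction. Gt(ROSA)26Sor (chromosome 6, 113067428 to 113077333, minus strand), the non-coding transcript of the locus that carries the mTmG insert, was 1.55, 2.79 and 1.51 CPM in the CD26+ and 6.33, 6.55 and 4.22 CPM in the double+ libraries of WB1P mice 93, 14 and 35. In WB1P-Myc mice 21, 23 and 69, it was 1.54, 0.941 and 1.18 CPM against 4.23, 5.02 and 4.1 CPM, and the groups did not overlap. The log2 fold change was 1.67 ± 0.16 (adjusted p = 0.0015, edgeR), and reads of this transcript cannot be told apart here from reads of the reporter that the locus carries. GFP+ and GFP− cells were sorted by the state of that reporter, so the sorts differ at this locus by design. Thumpd3, which overlaps it on the other strand, had a log2 difference of -0.07 ± 0.10 and Setd5, the next gene, of 0.10 ± 0.06, neither of them called. Dpp4, the gene of the sorting marker, was 254 to 639 CPM in CD26+ and 277 to 516 CPM in double+ libraries, higher in 3 of 6 mice (log2 difference -0.07 ± 0.07, adjusted p = 0.762, edgeR).

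**Figure D1:**
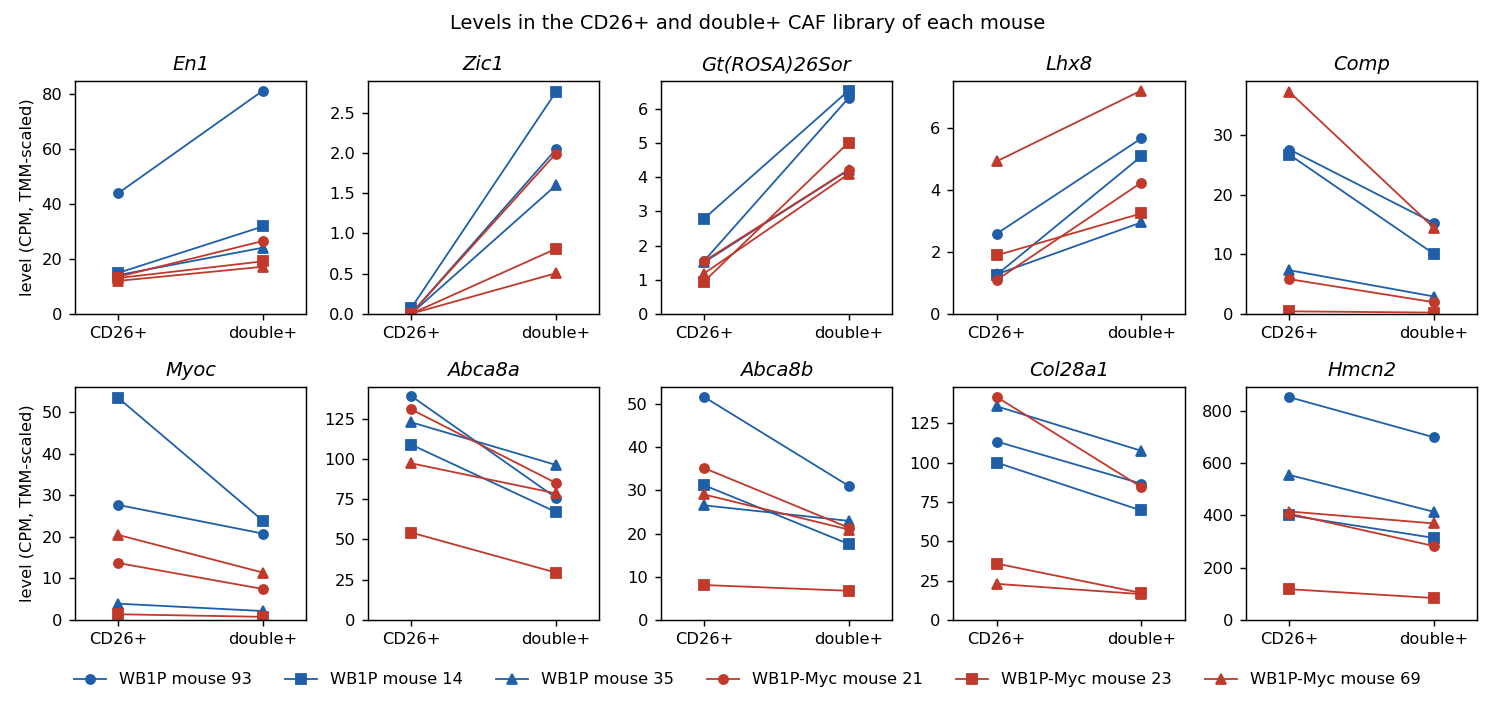
Levels (CPM on TMM-scaled library sizes, linear axes from 0) of 10 genes in the CD26+ and the double+ library of 6 mice, each line 1 mouse, blue for WB1P and red for WB1P-Myc. Lines of En1, Zic1, Gt(ROSA)26Sor and Lhx8 go up to double+ in 6 of 6 mice, and those of Comp, Myoc, Abca8a, Abca8b, Col28a1 and Hmcn2 go down in 6 of 6, from starting levels that differ widely between mice.

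Few genes separated the lineages within CD26+ CAFs. Of 12798 genes tested, 8 were called at an adjusted p under 0.05, or 0.0625%. En1 and Gt(ROSA)26Sor were higher in double+ CAFs (2 genes, 0.0156%), and Comp, Myoc, Abca8a, Col28a1, Hmcn2 and Abca8b were lower (6 genes, 0.0469%). Gt(ROSA)26Sor is the locus of the reporter used for the sort, so its call cannot be read independently of the sort. No gene was also past a log2 fold change of 2, the limit the study used, while 10 genes were so in edgeR without a low-count filter and 2 with DESeq2. At an unadjusted p under 0.05 there were 1094 genes, 8.55% of those tested. The median size of the log2 difference over all genes was 0.07.

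**Figure D2:**
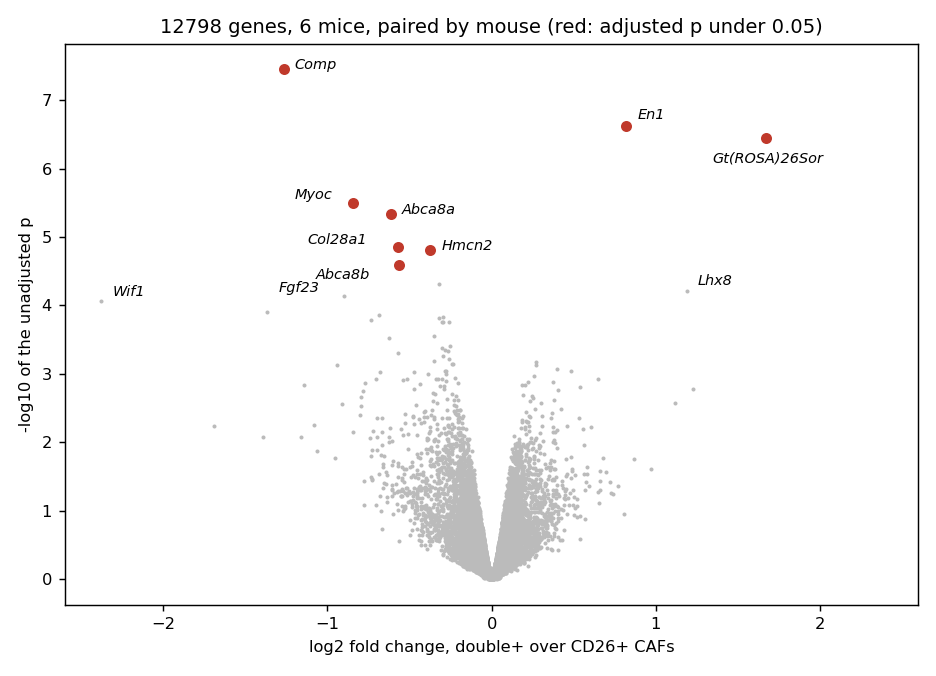
Log2 fold change of double+ over CD26+ CAFs (x axis) against −log10 of the unadjusted p of edgeR's paired test (y axis) for 12798 genes. The 8 called genes are red, 2 to the right and 6 to the left of 0, and the grey gene with the largest difference is Wif1 at -2.38.

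The genes lower in the En1 lineage encode secreted matrix proteins and lipid transporters. Comp (chromosome 8, 70373558 to 70382066), which encodes a thrombospondin family protein of cartilage and tendon that binds collagen fibrils, was 27.6, 26.7 and 7.29 CPM in CD26+ and 15.2, 10 and 2.88 CPM in double+ libraries of WB1P mice 93, 14 and 35. In WB1P-Myc mice 21, 23 and 69, it was 5.79, 0.392 and 37.2 CPM against 1.91, 0.179 and 14.4 CPM. Levels differed widely between mice, with mouse 23 lowest in both sorts, and the double+ library was the lower one in 6 of 6 mice. The log2 fold change was -1.27 ± 0.10 (adjusted p = 0.00046, edgeR), or 2.41-fold lower.

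Myoc (chromosome 1, 162639155 to 162649693) encodes myocilin, a secreted glycoprotein of connective tissue and the eye. Its levels were 27.7, 53.4 and 3.88 CPM in CD26+ against 20.8, 23.8 and 2.11 CPM in double+ libraries of WB1P mice 93, 14 and 35, and 13.7, 1.33 and 20.4 CPM against 7.42, 0.718 and 11.4 CPM in WB1P-Myc mice 21, 23 and 69. It was lower in double+ in every mouse, with a log2 fold change of -0.85 ± 0.10 (adjusted p = 0.01, edgeR), which was no longer called without WB1P mouse 14 (adjusted p = 0.0854). Hmcn2 (chromosome 2, 31314415 to 31460738), which encodes the basement membrane protein hemicentin 2, ranged from 117 to 853 CPM in CD26+ and from 83.4 to 699 CPM in double+ libraries (medians 411 and 341 CPM), with a log2 fold change of -0.37 ± 0.05 (adjusted p = 0.0285). Col28a1 (chromosome 6, 7997808 to 8192617), a collagen gene, ranged from 22.9 to 142 CPM and from 16.3 to 108 CPM (medians 107 and 77 CPM), with a log2 fold change of -0.57 ± 0.08 (adjusted p = 0.0285). For both, the groups overlapped and 6 of 6 mice had the lower level in double+.

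Abca8a and Abca8b encode lipid transporters of the ABCA family and lie next to each other on chromosome 11 (110025634 to 110095978 and 109932190 to 109995845, minus strand). Abca8a was 139, 109 and 123 CPM in CD26+ and 75.9, 67 and 96.2 CPM in double+ libraries of WB1P mice 93, 14 and 35. In WB1P-Myc mice 21, 23 and 69, it was 131, 54.2 and 97.2 CPM against 85, 29.3 and 78.5 CPM, so that each double+ level was below its partner although the groups overlapped. Log2 fold changes were -0.61 ± 0.08 for Abca8a (adjusted p = 0.0119) and -0.57 ± 0.08 for Abca8b (adjusted p = 0.0408), and since the 2 genes are close paralogs, the split of reads between them is uncertain. Further along the same cluster, which was looked at after these values were seen, Abca9 had a log2 difference of -0.26 ± 0.08 (unadjusted p = 0.007), Abca6 of -0.29 ± 0.07 (unadjusted p = 0.0015) and Abca5 of 0.05 ± 0.06 (unadjusted p = 0.394), none of them called.

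These calls differ in how far they rest on the choice of libraries. En1, Gt(ROSA)26Sor and Comp were called whichever mouse was left out, with log2 fold changes of 0.76 to 0.87, 1.55 to 1.82 and -1.40 to -1.22. Myoc was called in 5 of the 6 leave-outs, Abca8a in 3, Abca8b and Col28a1 in 2 and Hmcn2 in 1, all with unchanged direction, and leaving out WB1P mouse 14 ended the calls of all 5. In the fit of all 44 libraries, 4 genes of 15584 (0.0257%) were called for the same contrast, En1, Gt(ROSA)26Sor and Zic1 upward and Ccl22 downward, and Comp was not (log2 fold change -1.17 ± 0.35, adjusted p = 0.798, edgeR).

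**Figure D3:**
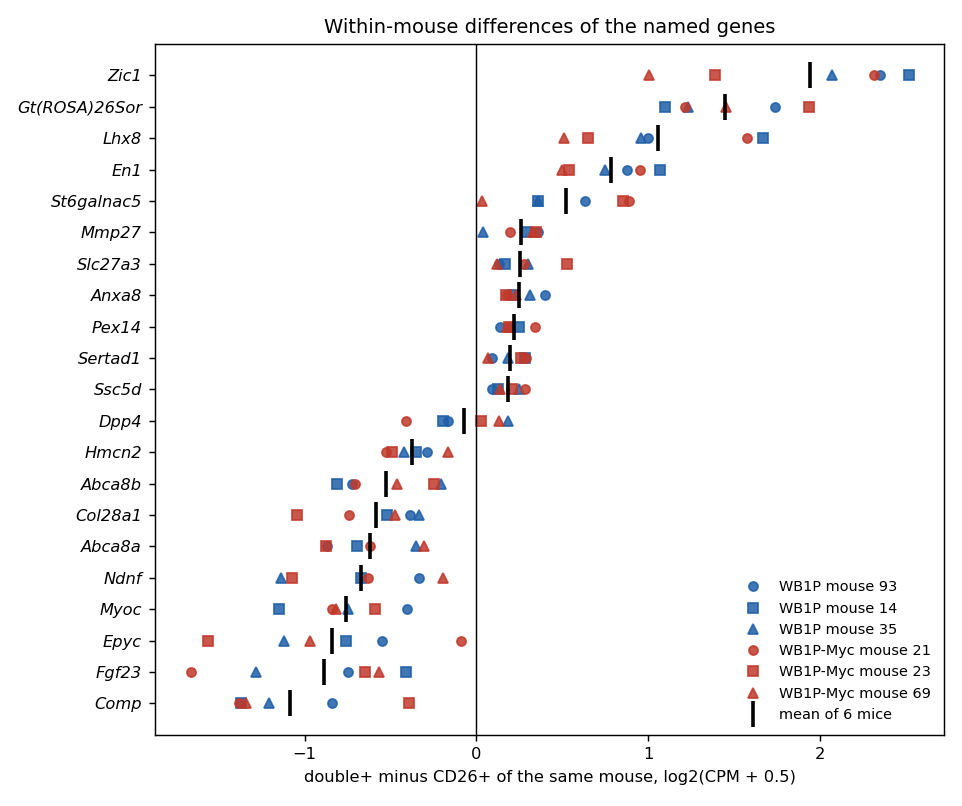
Difference between the double+ and the CD26+ library of each mouse in log2(CPM + 0.5), 1 row per gene and 1 symbol per mouse, with the mean of 6 mice as a black bar. Zic1, Gt(ROSA)26Sor, Lhx8 and En1 have 6 of 6 mice to the right of 0, Comp and Fgf23 have 6 of 6 to the left, and Dpp4 has 3 on either side.

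Beside the called genes stand those with the smallest p and 1 direction in 6 of 6 mice, given as values only. On the side of double+, Lhx8, a LIM homeodomain transcription factor gene, came nearest to a call. Its levels were 2.58, 1.25 and 1.27 CPM in CD26+ against 5.65, 5.07 and 2.94 CPM in double+ libraries of WB1P mice 93, 14 and 35, and 1.09, 1.88 and 4.91 CPM against 4.23, 3.23 and 7.19 CPM in WB1P-Myc mice 21, 23 and 69. The log2 difference was 1.19 ± 0.20 (adjusted p = 0.0778, edgeR), and DESeq2's Wald test did call it (adjusted p = 0.0034). The others had differences of 0.18 to 0.48, with adjusted p from 0.274 to 0.304 (edgeR). They are Mmp27 (a matrix metalloproteinase, 0.27 ± 0.06), Anxa8 (an annexin, 0.27 ± 0.06), St6galnac5 (a sialyltransferase, 0.48 ± 0.11), Slc27a3 (an acyl-CoA synthetase, 0.26 ± 0.06), Pex14 (a peroxisomal membrane protein, 0.22 ± 0.05), Sertad1 (0.20 ± 0.05) and Ssc5d (a secreted scavenger receptor, 0.18 ± 0.04).

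On the side of CD26+ stood Fgf23, Epyc and Ndnf. Fgf23, the hormone of phosphate balance that bone secretes, was 16.2, 12.2 and 15.4 CPM in CD26+ and 9.45, 9.05 and 6.01 CPM in double+ libraries of WB1P mice 93, 14 and 35, and 9.68, 6.19 and 11.9 CPM against 2.71, 3.77 and 7.84 CPM in WB1P-Myc mice 21, 23 and 69 (log2 difference -0.90 ± 0.15, adjusted p = 0.0847, edgeR). Ndnf, which encodes a secreted neurotrophic factor, had a log2 difference of -0.69 ± 0.12, and Epyc, a small leucine-rich proteoglycan gene of cartilage, of -1.37 ± 0.24 at 0.195 to 3.09 CPM (both adjusted p = 0.113). DESeq2 called Fgf23 and Ndnf.

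Developmental regulators were next, as the genes in which an embryonic origin could be read. Of 27 lineage and dermomyotome transcription factor genes, 11 passed the low-count filter, and En1 was the 1 called. The median log2 difference of the 11 was -0.15, against -0.0037 over all genes tested, and 6 had an unadjusted p under 0.05 (54.5%, against 8.55% of all genes). Among them, Foxc1 had a difference of -0.48 ± 0.14 and Eya2 of -0.51 ± 0.16, each below 0 in 5 of 6 mice. Sim1, a bHLH factor gene, held 27, 6, 14, 10, 20 and 2 counts in the CD26+ and 21, 3, 13, 1, 9 and 2 counts in the double+ libraries of mice 93, 14, 35, 21, 23 and 69. None but En1 was called after adjustment.

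Hox genes, which record position along the body axis, differed in both directions without a call. Of 39 Hox genes, 21 were tested and 0 were called. An unadjusted p under 0.05 was found for 7 (33.3%, against 8.55% of all genes), 3 above and 4 below 0. The median was -0.05, with a range from -1.14 to 0.42. Hoxb9 held 13, 12, 20, 8, 20 and 25 counts in CD26+ and 8, 4, 4, 6, 7 and 21 counts in double+ libraries of mice 93, 14, 35, 21, 23 and 69, the lower count in double+ in 6 of 6 mice (log2 difference -1.14 ± 0.28, adjusted p = 0.304, edgeR). Hoxb6 went the same way in 6 of 6 mice (-0.67 ± 0.21) and Hoxa9 the other way in 6 of 6 (0.42 ± 0.11), neither called. The 7 that passed unadjusted were Hoxb9, Hoxb6, Hoxc8 and Hoxb3 below 0 and Hoxa9, Hoxd8 and Hoxa7 above it.

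Of 36 limb, flank and lateral plate patterning genes, 25 were tested and 0 called, with a median of -0.06. Of them, 10 had an unadjusted p under 0.05 (40%, against 8.55% of all genes), 7 below and 3 above 0. Alx4, a homeobox gene of the limb bud, had a log2 difference of -0.73 ± 0.22 (lower in 5 of 6 mice), Gata6 of -0.30 ± 0.10 (5 of 6) and Twist1, a bHLH regulator of mesenchyme, of 0.16 ± 0.05 (higher in 6 of 6 mice). Pitx1 and Tbx5, hindlimb and forelimb regulators, had -0.39 ± 0.14 and -0.30 ± 0.11.

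The lists of CAF states held 1 gene called in edgeR, while DESeq2's Wald test called Il33, Cxcl14 and Ltbp2 as well. All 25 genes of CD26+ and progenitor fibroblasts were tested, with 0 called and a median of -0.01. Of them, 4 had an unadjusted p under 0.05 (16%, against 8.55% of all genes), and Il33, a cytokine of the interleukin-1 family, had the smallest p. Il33 ranged from 290 to 1283 CPM in CD26+ and 265 to 1111 CPM in double+ libraries (log2 difference -0.28 ± 0.06, lower in 6 of 6 mice, adjusted p = 0.294, edgeR), followed by Limch1 (-0.35 ± 0.10) and Sbsn (0.21 ± 0.06). Of 31 inflammatory CAF genes, Hmcn2 was called and the median was -0.04. Of them, 4 had an unadjusted p under 0.05 (12.9%, against 8.55% of all genes). Cxcl14, a chemokine gene, had a difference of -0.39 ± 0.09 (lower in 6 of 6 mice, adjusted p = 0.298, edgeR). Has2, a hyaluronan synthase gene, had -0.12 ± 0.05.

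Of 30 myofibroblast and contractile genes, 27 were tested and 0 called, with a median of -0.06. An unadjusted p under 0.05 was found for 6 (22.2%, against 8.55% of all genes), all 6 below 0. Ltbp2, which encodes a latent TGF-beta binding protein of elastic fibers, was 73.3 to 459 CPM in CD26+ and 73 to 426 CPM in double+ libraries (log2 difference -0.30 ± 0.06, lower in 6 of 6 mice, adjusted p = 0.254, edgeR), Actg2 had -0.74 ± 0.26 and Col11a1 -0.29 ± 0.10. Of 42 fibrotic matrix genes, 40 were tested and 0 called, and their median was 0.02. An unadjusted p under 0.05 was found for 8 (20%, against 8.55% of all genes), 5 above and 3 below 0. Timp3 (-0.20 ± 0.06) and Eln, the elastin gene (-0.27 ± 0.09), stood below 0 and Col5a3 (0.20 ± 0.06) above it. Of 10 fibroblast markers, Lum had the smallest p, at -0.17 ± 0.06, followed by Fap at -0.10 ± 0.05 and Dcn at -0.05 ± 0.05.

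Of 39 Wnt pathway genes, 30 were tested and 0 called, with a median of -0.03. An unadjusted p under 0.05 was found for 10 (33.3%, against 8.55% of all genes), 7 of them below 0. Wif1, which encodes a secreted Wnt inhibitor, had the largest difference of any gene tested, -2.38 ± 0.41 (adjusted p = 0.0922, edgeR), and was called by DESeq2. Its counts were 6, 79, 8, 32, 6 and 160 in CD26+ and 1, 21, 2, 16, 6 and 12 in double+ libraries of mice 93, 14, 35, 21, 23 and 69, so that mouse 69 held 160 of the 291 counts in CD26+ and the direction was seen in 5 of 6 mice. Sfrp1, another secreted inhibitor, had -0.28 ± 0.09, the receptor gene Fzd4 -0.20 ± 0.07 and the target gene Axin2 -0.19 ± 0.07. Of the ligands, Wnt5b had 0.39 ± 0.15, Wnt16 0.26 ± 0.10 and Wnt5a -0.21 ± 0.09.

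**Figure D4:**
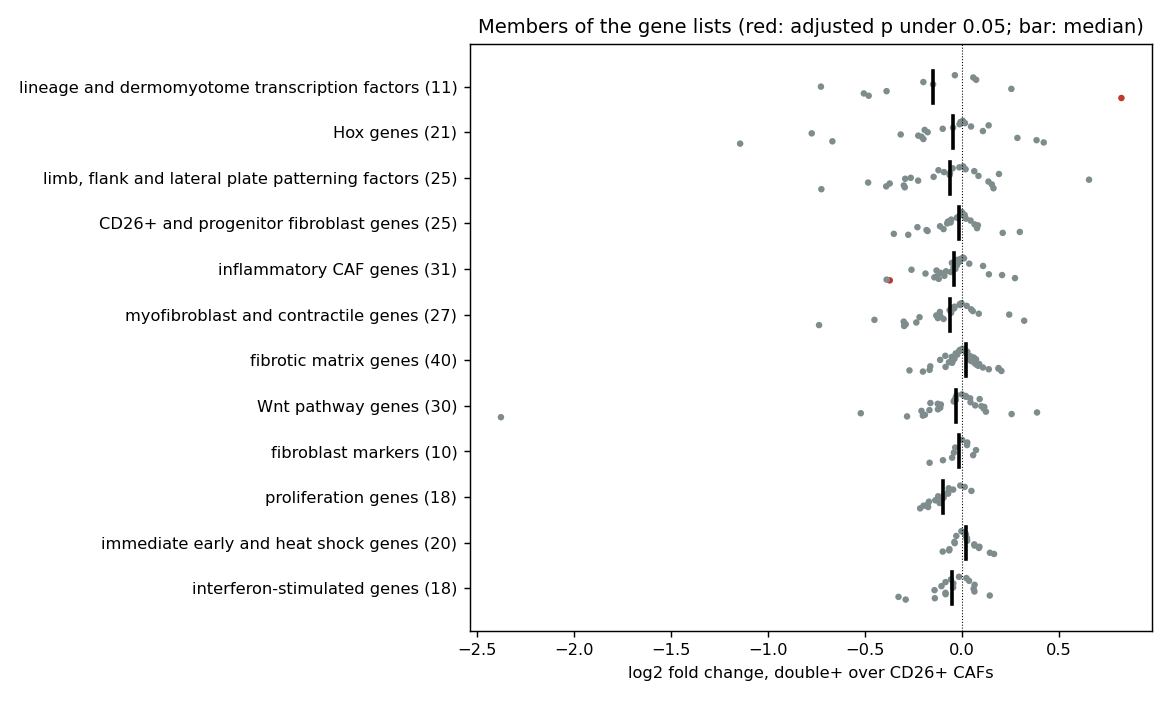
Log2 fold change of double+ over CD26+ CAFs (x axis) for the tested members of 12 gene lists, with the number tested in brackets, the median as a black bar and called genes in red. Medians lie between -0.15 and 0.02, En1 and Hmcn2 are the called members, and Wif1 stands apart on the left at -2.38.

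Tendon and cartilage markers held the called gene Comp. Of 9 such genes, 7 were tested, with a median of -0.39 and 2 at an unadjusted p under 0.05 (28.6%, against 8.55% of all genes), both below 0. The summed level of the 9 was 28.3 to 86.9 CPM in CD26+ and 26.2 to 60.2 CPM in double+ libraries, lower in double+ in 5 of 6 mice. Median and sum include Comp itself, at means of 17.5 CPM in CD26+ and 7.43 CPM in double+ libraries. Sox9, a regulator of cartilage, was the most abundant of them, at 24.3 and 22.4 CPM on average. Acan, the aggrecan gene, had -0.61 ± 0.20 but was lower in 4 of 6 mice, and Mkx, a tendon regulator, had 0.28 ± 0.15, neither called, and the part of such cells in the Comp difference was not tested.

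General states of the cells showed no called gene. The 18 proliferation genes had a median of -0.10, 16 of them below 0. Of them, 5 had an unadjusted p under 0.05 (27.8%, against 8.55% of all genes), all 5 below 0. Their summed level was lower in the double+ library of 6 of 6 mice (344 to 834 CPM in CD26+, 314 to 807 CPM in double+). Top2a (-0.22 ± 0.06) and Ccnb1 (-0.18 ± 0.06) were lower in 6 of 6 mice and Rrm2 (-0.20 ± 0.08) in 5. Of 20 immediate early and heat shock genes, Jund had the smallest p (0.16 ± 0.05) and the median was 0.02. Of 18 interferon-stimulated genes, Ifit2 had the smallest p (-0.29 ± 0.09), followed by Gbp2 (-0.14 ± 0.06) and Mx1 (-0.33 ± 0.15), and the median was -0.05. Mitochondrial transcripts took a median of 0.551% of the counts in CD26+ and 0.545% in double+ libraries, less in double+ in 5 of 6 mice.

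Whether the lineage difference depended on the tumor model was tested as an interaction in the same 12 libraries. No gene was called, with 300 genes at an unadjusted p under 0.05, in edgeR, and 3 mice per model leave little to test with. The label mark 8x8 falls on WB1P-Myc mice only, and the paper uses this size in mm for an advanced stage. The interaction therefore cannot separate the tumor model from a possible difference in tumor stage. En1 had a log2 fold change of 0.92 ± 0.10 in WB1P and 0.69 ± 0.11 in WB1P-Myc mice (difference -0.23 ± 0.15, unadjusted p = 0.163 in edgeR). Comp had -1.18 ± 0.13 and -1.42 ± 0.17 (difference -0.24 ± 0.21), and Gt(ROSA)26Sor 1.53 ± 0.22 and 1.87 ± 0.25 (difference 0.34 ± 0.35). Col28a1, at -0.42 ± 0.09 and -0.77 ± 0.10, had the smallest unadjusted p of the called genes (0.0238, adjusted p = 0.9998, edgeR).

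The genes called in CD26+ CAFs were then looked up in libraries that had no part in the call, those of the CD26− CAFs (En1+ against double−, 7 mice with both, 5 of them the same animals) and of the NFs (3 mice). In CD26− CAFs, 12 of 15584 genes were called (0.077%). En1 was 21 ± 14.4 CPM in En1+ and 11.2 ± 5.29 CPM in double− libraries (SD, n = 7, log2 fold change 0.93 ± 0.13, adjusted p = 0.0014, edgeR). Comp was 6.06 ± 5.68 and 17.2 ± 11.8 CPM (log2 fold change -1.90 ± 0.35, adjusted p = 0.0195), lower in the En1 lineage in 7 of 7 mice. This fit, which holds all 44 libraries, did not call Comp in CD26+ CAFs, as given above. The other called genes besides Zic1 were lower in the En1 lineage. They are Csf3r, Ighm, Jchain, S100a9, Cyfip2, Syk and Cyp4f18, of which Csf3r and S100a9 mark neutrophils and Ighm and Jchain plasma cells, and Limch1 and Gria4. In CD26+ CAFs, the totals of the plasma cell genes went the other way. Ighm held 17 counts in CD26+ and 161 in double+ libraries, and Jchain 26 and 74. How these totals were spread over the mice was not examined. Csf3r held 48 and 34 counts and S100a9 27 and 17, and all of these were below the low-count filter and not tested there.

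Zic1 held 0 to 17 counts in En1+ and 54 in all against 1 in the 7 double− libraries, a ratio of 53.1 (95% exact interval 9.13 to 2130). The remaining genes did not pass the test in CD26− CAFs. Gt(ROSA)26Sor had 0.65 ± 0.15 (adjusted p = 0.0792, higher in 7 of 7 mice), Abca8b -0.55 ± 0.17 (adjusted p = 0.279, lower in 7 of 7), Abca8a -0.34 ± 0.22, Hmcn2 -0.87 ± 0.25, Col28a1 -0.51 ± 0.24 and Myoc -1.5 ± 0.55, each lower in 6 of 7 mice. The test of the difference between the lineage effects in CD26+ and CD26− CAFs called 0 of 15584 genes in edgeR (721 at an unadjusted p under 0.05), with 1.03 ± 0.24 for Gt(ROSA)26Sor (unadjusted p = 0.00014, adjusted p = 0.702).

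In CD26+ NFs, 2 genes were called (0.0128%), Zic1, which passed the filter through the double+ libraries alone, and Hpse2, a heparanase family gene that had a log2 fold change of -2.49 ± 0.40 (adjusted p = 0.0072, edgeR). Zic1 held 44 to 80 counts in the 3 double+ libraries and 0 in the 3 CD26+ libraries, at least 62.1-fold higher against a floor of 3 counts over the group. En1 was 16.3 ± 1.77 CPM in double+ and 7.9 ± 0.70 CPM in CD26+ NFs (SD, n = 3, log2 difference 1.04 ± 0.22, adjusted p = 0.192), in 3 of 3 mice. Comp was low in both, at 0.555 ± 0.106 and 0.878 ± 0.102 CPM (log2 difference -0.70 ± 0.90), and the ABCA genes were abundant and close to equal, Abca8a at 548 ± 82.7 and 541 ± 68.6 CPM (0.02 ± 0.33) and Abca8b at 102 ± 19.4 and 99.4 ± 15 CPM (0.03 ± 0.23). Myoc had -0.08 ± 0.50, Hmcn2 0.31 ± 0.37 (higher in 3 of 3 mice) and Col28a1 -0.82 ± 0.39 (lower in 3 of 3), none of them called. The test of tumor against control for the double+ to CD26+ difference called 0 of 15584 genes in edgeR (254 at an unadjusted p under 0.05), with -0.75 ± 0.29 for Abca8b (unadjusted p = 0.0137) and -0.81 ± 0.40 for Abca8a (unadjusted p = 0.0533).

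**Figure D5:**
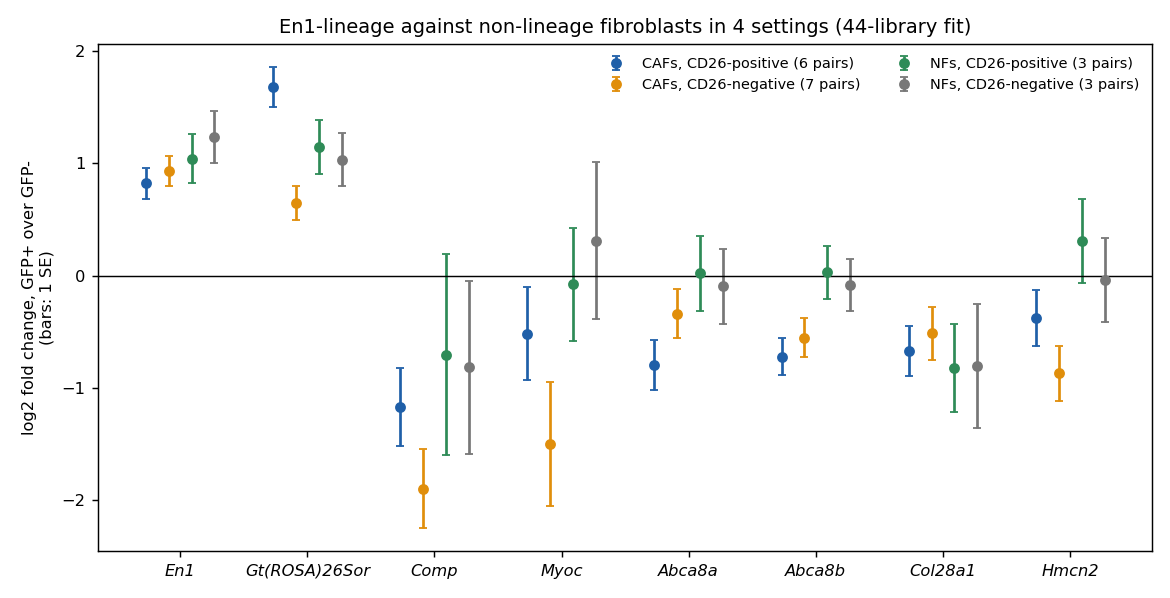
Log2 fold change (± 1 SE, 44-library fit) of En1-lineage over non-lineage fibroblasts for the 8 called genes in CD26-positive CAFs (6 mice with both sorts), CD26-negative CAFs (7 mice), CD26-positive NFs (3 mice) and CD26-negative NFs (3 mice). En1 and Gt(ROSA)26Sor lie above 0 in all 4 settings and Comp below 0 in all 4, with wide errors in NFs, while Abca8a and Abca8b lie near 0 in NFs.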

How the data were processed

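The authors made stranded polyA mRNA libraries from sorted cells, sequenced them and deposited raw counts of reads per gene, without normalization. HISAT2 2.2.1 and the build GRCm38 stand in the submitters' processing notes, and the counter, its strand setting and the annotation are not given in the sources used here. The table has 55487 rows, and its 1 row without a gene name is empty (0 counts). Pairing follows the mouse number in the labels. Over genes, the 2 sorts of a mouse deviated together from the mean of their group, with r between 0.733 and 0.895 in the 6 mice. No 2 of the 12 libraries were copies (smallest chi-square per gene 4.12).

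Counts were tested in R 4.3.3 with edgeR 4.0.16 (filterByExpr, TMM, glmQLFit and glmQLFTest) with mouse and population as terms. Further comparisons came from 1 fit of all 44 libraries with a block for each of 13 mice and population within tumor and within control. Each SE is the size of the log2 fold change divided by the square root of F. DESeq2 1.42.0 and limma 3.58.1 (voom) served as alternatives. Within-mouse differences used a pseudocount of 0.5 CPM. Libraries of 1 sort come from different mice, and control labels with 2 numbers were counted as 1 mouse. The members, gene lists and tests were chosen with earlier results of these data known. Named genes are En1, Zic1, Dpp4 and Gt(ROSA)26Sor, called genes, per direction the 10 with the smallest p among those with 1 sign in 6 mice and a mean of at least 1 CPM, and the 3 smallest p of each of 21 lists; 1 gene that met this rule is not reported here. Hoxc8, Hoxb3, Hoxd8, Hoxa7, Sim1, Pitx1, Tbx5, Axin2, Wnt5b, Wnt16, Wnt5a, the ABCA cluster and the lists under other observations were chosen after values were seen. The fit was tested on simulated counts with 200 changed genes. None of these was a low-count gene, and their changes were larger than those of most called genes here, so smaller differences were not covered. Intervals cover counting error only. Coordinates are those of GRCm38 as in GENCODE M21.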

Additional observations from a re-analysis of the deposited data

Results flagged for a closer look

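In 66 sets of 6 values (22 genes, each as the level in CD26+, the level in double+ and the within-mouse difference, all in log2(CPM + 0.5)), 4 held a mouse that stood apart from the other 5 by Dixon's test, and chance flags about 1 in 20 such sets. En1 in the CD26+ library of WB1P mouse 93 was 5.48 (44.1 CPM), against 3.95 in the next mouse. Zic1 in the CD26+ library of WB1P mouse 14 was -0.812, from the single count seen in that sort, against -1 at 0 counts in the other 5. Abca8a in the double+ library of WB1P-Myc mouse 23 was 4.9 (29.3 CPM), against 6.08 in the next mouse, and Abca8b in the CD26+ library of the same mouse was 3.1 (8.07 CPM), against 4.76. None of the 22 sets of within-mouse differences held such a mouse.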

How the results depend on the processing

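The libraries of a mouse form pairs, and without the replicate block, with the tumor model as a factor in its place, 0 genes were called (0 higher, 0 lower, 45 at an unadjusted p under 0.05), with Gt(ROSA)26Sor at an adjusted p = 0.0719 and the other 7 at 0.9998 in edgeR. DESeq2's size factors and limma voom each called 8 genes, the same 8. Without a low-count filter, edgeR called 266 genes (76 higher, 190 lower, 10 also past a log2 fold change of 2), with an infinite prior for the dispersions, and the tumor model test called 31, the test of CD26+ against CD26− CAFs 1 and En1+ against double− CAFs 29. DESeq2's Wald test called 22 (4 higher, 18 lower, 2 past 2), all 44 libraries in 1 fit 4 (1 lower, 2 past 2), and the fit without the 2 mice marked 8x8 called 5 higher and 3 lower (1 past 2), with 4 of the 8 genes among them. A filter of 10 counts in 3 libraries, chosen after seeing the data, called the same 8 and Zic1 (1 past 2), which passes this filter through double+ libraries alone. With each mouse left out in turn, 3 to 12 genes were called, 2 to 4 higher, 1 to 9 lower and 0 to 1 past 2. The counts were 4 to 24 for En1+ against double− CAFs (4 without WB1P mouse 35, 24 without WB1P mouse 14), 1 to 1 for CD26+ NFs without any 1 of the 3 mice, 0 to 1 by tumor model (1 without WB1P-Myc mouse 69) and 0 for the tests of tumor against control and of CD26+ against CD26− CAFs. Of 299 values of 22 single genes under all alternatives, 1 reversed, Dpp4 at 0.00691 in the 44-library fit, 35 lost a call and 17 gained one. Depth limits Zic1 and Zic4 most, at 0 to 43 counts per library.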

Other observations

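Low-oxygen and glycolysis genes were put together as a list after their values were seen, so that the counts describe the choice and test nothing. Of 20 such genes, 20 were tested, 0 were called in edgeR, 19 had a log2 difference above 0 and 7 an unadjusted p under 0.05 (35%, against 8.55% of all genes), with a median of 0.18. Car9, a carbonic anhydrase induced by low oxygen, had 0.97 ± 0.38 (higher in 4 of 6 mice, and 3.21 against 15.3 CPM in WB1P-Myc mouse 23), Slc2a3, a glucose transporter, 0.30 ± 0.10 (6 of 6) and Ankrd37 0.35 ± 0.14 (6 of 6). The summed level was 3225 to 6415 CPM in CD26+ and 3023 to 6742 CPM in double+ libraries, higher in double+ in 4 of 6 mice.

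Genes of the TGF-beta latency and tolloid group were also chosen after their values were seen, with the same limit. All 7 were tested and 0 called in edgeR, 6 lay below 0 and 4 had an unadjusted p under 0.05 (57.1%, against 8.55% of all genes). These were Ltbp2 (-0.30 ± 0.06), Ltbp4 (-0.24 ± 0.05), Tll1 (-0.57 ± 0.12) and Tll2 (-0.68 ± 0.15), the last a tolloid-like protease gene. DESeq2's Wald test called Ltbp2, Ltbp4 and Tll2.

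Most counts of 4 genes known from migratory dendritic cells were in 1 library. Ccl22 held 91 of its 128 counts of the CD26+ sort in WB1P-Myc mouse 69 and 31 in WB1P mouse 35, against 6 counts in all 6 double+ libraries. Ccr7 held 95 of 115, Il12b 37 of 40 and Flt3 28 of 31 in the CD26+ library of mouse 69, against 18, 4 and 3 counts in double+. Of 12 dendritic cell markers, 6 were tested and 0 called in edgeR, and Fscn1, the most abundant, was 248 and 262 CPM on average. Ccl22 was the downward call of the 44-library fit (log2 fold change -4.23 ± 0.79, adjusted p = 0.0459, edgeR).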
